A study of Mus musculus with 11 samples.

Results

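The oligodendrocyte precursor genes were a set of 9 genes, Pdgfra, Gpr17, Olig1, Olig2, Cspg4, Bcan, Vcan, Ptprz1 and Lhfpl3, out of 16527 genes tested on the arrays. They were chosen by name, as a list with no threshold on their values, and each was read by 1 probe set annotated to that gene alone. The choice of the 9 genes and of all other lists was made with earlier results of these data known. Counts set beside shares of all genes are therefore descriptions and not tests of the lists. All 9 lay above the 25th percentile of the array on all 11 arrays, so none entered the tests through a single group. GFP-positive cells were sorted from the microdissected dentate gyrus of mice aged 35 postnatal days, and their RNA was hybridised to 11 Affymetrix Mouse Gene 1.0 ST arrays. PomcGFP (2 arrays) is a transgenic line with GFP under Pomc, a gene used to label newborn granule neurons. kiTbr2GFP (3 arrays) carries GFP knocked into Eomes, the gene of the intermediate progenitor factor Tbr2, and tgTbr2GFP (3 arrays) carries GFP on an Eomes bacterial artificial chromosome. NesGFP (3 arrays) is a transgenic line with GFP under Nestin, which is active in neural stem cells and can also label precursors, pericytes and endothelial cells. All 4 groups were adult animals of the same age with no treatment given in the labels, and all carried GFP, so every group is a sort on reporter fluorescence and no group holds unsorted cells. About 3000 to 5000 cells were sorted per group and the RNA was amplified before hybridisation. The labels do not tie the arrays of a line to different animals, so p-values measure only how arrays vary, possibly for technical reasons.

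Oligodendrocyte precursors are the dividing glial cells that give rise to myelinating oligodendrocytes and that persist in the adult hippocampus. They receive platelet-derived growth factor through the receptor encoded by Pdgfra, are specified by the basic helix-loop-helix factors encoded by Olig1 and Olig2, and carry chondroitin sulfate proteoglycans at their surface and in the matrix around them. Gpr17 marks precursors that have begun to differentiate. Several of these genes are not exclusive to precursors, since Cspg4 is also expressed by pericytes, Pdgfra by meningeal fibroblasts, Olig1 and Olig2 by later oligodendrocytes, and Ptprz1, Bcan and Vcan by other neural cells.

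The deposited values are log2 RMA signals, and a difference of 1 between lines is a change by a factor of 2. Signals of different genes come from different probes and were not set against each other. The 25th percentile of the arrays lay between 5.90 and 6.20, and no array was a copy of another. Arrays of a line correlated across genes with r of 0.939 to 0.985, arrays of PomcGFP, kiTbr2GFP and tgTbr2GFP with each other with r of 0.933 to 0.973, and these with NesGFP arrays with r of 0.766 to 0.839. Eomes had a mean of 7.52 ± 0.23 on PomcGFP arrays (SD, n = 2), 9.98 ± 0.08 on kiTbr2GFP arrays, 10.18 ± 0.31 on tgTbr2GFP arrays and 8.80 ± 0.38 in NesGFP (SD, n = 3 each), so the reporter gene was highest in both Tbr2 lines. Within tgTbr2GFP, replicate 1 stood apart in genes of mature oligodendrocytes: the mean log2 signal of 11 myelin genes was 9.24 on it and 7.23 and 7.58 on replicates 2 and 3. Results of the 9 genes that involve tgTbr2GFP are therefore given with and without it where a call or a direction changed. So are the counts of gene lists for tgTbr2GFP against NesGFP where they changed.

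Promoter windows from RefSeq (GRCm38.p6) were used for 7 of the 9 genes. The 250 bases upstream of the start site are shown for 3 genes from different role groups whose window ends at the outermost annotated start of the gene. They are printed because the genes were highest in the same line, in lower case with any match to the searched motifs in capitals.
Olig2, chr16:91225300-91225549, strand +: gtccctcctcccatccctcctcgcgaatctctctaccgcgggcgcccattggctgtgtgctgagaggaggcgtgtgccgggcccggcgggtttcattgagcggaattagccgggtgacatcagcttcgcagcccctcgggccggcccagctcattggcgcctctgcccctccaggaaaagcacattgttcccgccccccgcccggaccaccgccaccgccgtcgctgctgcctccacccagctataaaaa
Cspg4, chr9:56864854-56865103, strand +: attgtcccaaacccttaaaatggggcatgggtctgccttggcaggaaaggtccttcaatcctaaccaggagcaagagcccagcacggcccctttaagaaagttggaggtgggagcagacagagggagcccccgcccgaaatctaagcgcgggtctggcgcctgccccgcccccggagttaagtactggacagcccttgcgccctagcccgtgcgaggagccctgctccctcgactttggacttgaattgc
Lhfpl3, chr5:22745804-22746053, strand +: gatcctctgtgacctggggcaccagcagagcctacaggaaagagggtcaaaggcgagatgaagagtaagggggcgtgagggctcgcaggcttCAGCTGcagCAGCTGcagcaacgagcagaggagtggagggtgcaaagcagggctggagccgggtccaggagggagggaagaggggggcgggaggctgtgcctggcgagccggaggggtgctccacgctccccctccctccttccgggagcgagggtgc
The motifs searched on both strands were the E-box cagctg, which reads the same on both strands, the E-box cagatg with its reverse catctg, and the SOX-type motif acaaag with its reverse ctttgt. No match of one overlapped a match of another in these windows. In the 7 windows, cagctg was found in 1 (Lhfpl3, with 2 matches in the stretch printed above), cagatg in 1 (Pdgfra) and acaaag in 0. Across all 32851 windows of the same length, 13% held cagctg, 14.4% cagatg and 16.5% acaaag. The GC content was 66.8% for Olig2, 60.4% for Cspg4 and 67.2% for Lhfpl3. These matches describe the letters of the windows only.

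Of the 9 genes 8 differed among the 4 lines, and these 8 had their highest mean in NesGFP. The exception was Vcan. In a moderated F test (limma, Benjamini-Hochberg adjusted over 16527 genes) 43.4% of all genes passed at an adjusted p under 0.05, and the adjusted p-values of the 8 genes lay between 1.70e-07 for Bcan and 0.00465 for Cspg4, against 0.268 for Vcan. Against NesGFP, the set held 8 lower and 0 higher genes in PomcGFP, where 24.0% of all genes were lower and 15.9% higher. It held 8 lower and 0 higher genes in kiTbr2GFP, where 27.0% of all genes were lower and 18.2% higher. In tgTbr2GFP it held 7 lower and 0 higher genes, where 25.8% of all genes were lower and 15.8% higher. The same numbers of the 9 genes, 8, 8 and 7, had all arrays of the line below all NesGFP arrays, where 30.9%, 29.7% and 28.4% of all genes did. The median difference of the 9 genes was -1.67 in PomcGFP, -2.38 in kiTbr2GFP and -2.05 in tgTbr2GFP, beside medians over all genes of 0.00, -0.01 and -0.03. These comparisons share the 3 NesGFP arrays and are not independent of each other. In sorted bulk samples fewer cells of a type and less RNA per cell cannot be told apart.

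**Figure D1:**
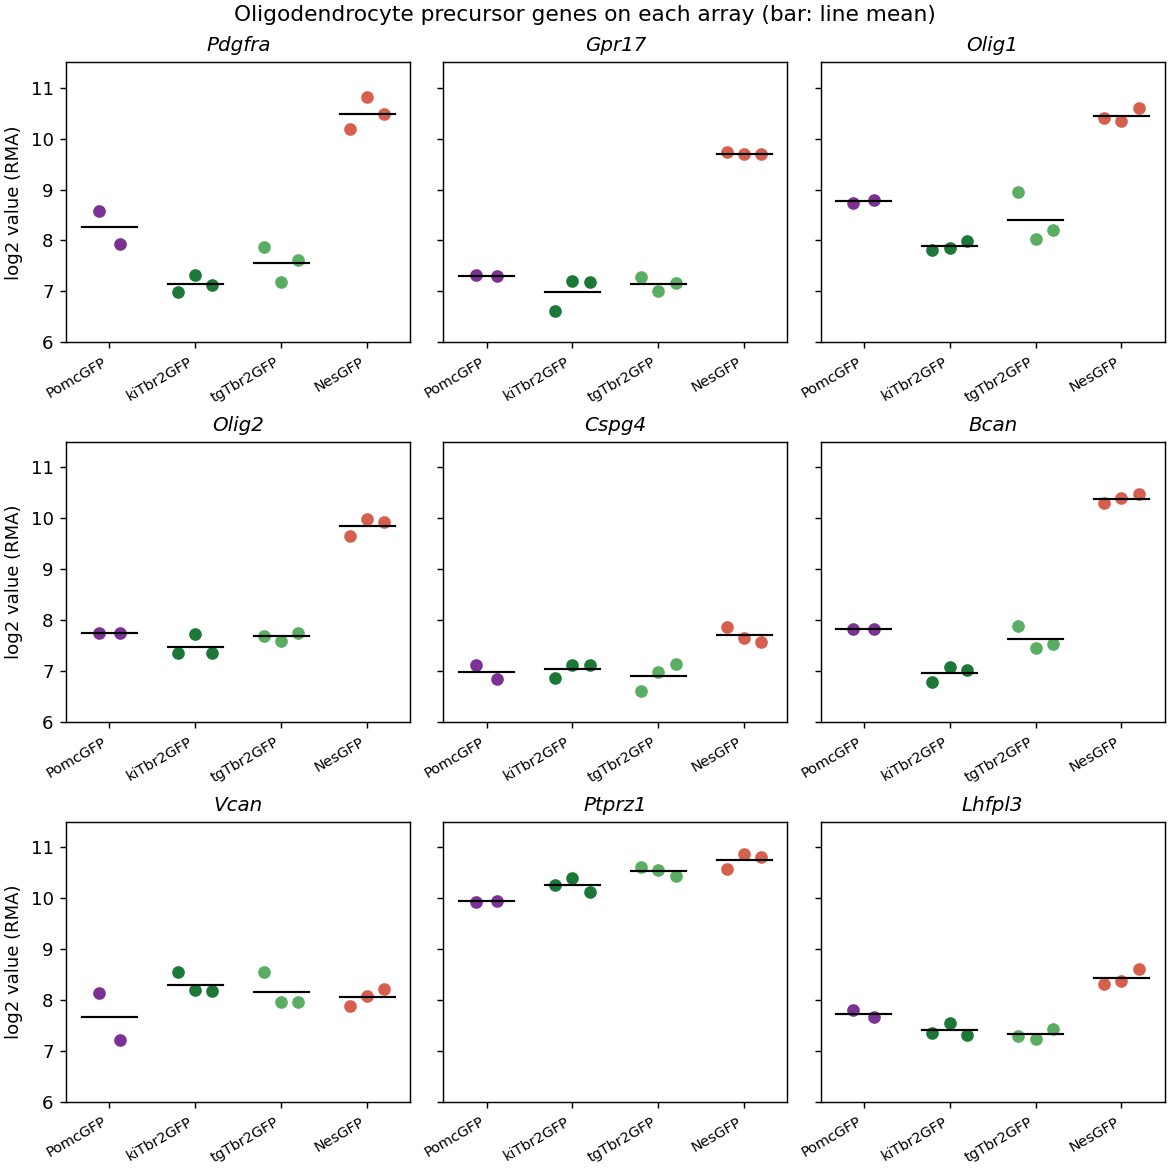
Log2 RMA signal of each of the 9 genes on each of the 11 arrays, by line in the order PomcGFP, kiTbr2GFP, tgTbr2GFP and NesGFP; points are arrays and horizontal bars are line means. Pdgfra, Gpr17, Olig1, Olig2 and Bcan have all 3 NesGFP arrays above every other array, whereas in Vcan each other line overlaps NesGFP.

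Among the receptors, Pdgfra, the receptor for platelet-derived growth factor A, was 4.71-fold lower in PomcGFP, 10.1-fold lower in kiTbr2GFP and 7.61-fold lower in tgTbr2GFP than in NesGFP. Its log2 signal was 8.58 and 7.93 on the PomcGFP arrays, 6.98, 7.33 and 7.12 on the kiTbr2GFP arrays, and 7.88, 7.19 and 7.61 on the tgTbr2GFP arrays, against 10.18, 10.81 and 10.48 on the NesGFP arrays. The lowest NesGFP array was above the highest array of the other lines, and PomcGFP replicate 1 was the highest of those. The difference from NesGFP was -2.23 ± 0.25 in PomcGFP (SE, limma adjusted p = 4.05e-05), -3.34 ± 0.22 in kiTbr2GFP (adjusted p = 6.26e-07) and -2.93 ± 0.22 in tgTbr2GFP (adjusted p = 1.95e-06). Pdgfra ranked 187th, 59th and 52nd from the most negative of the 16527 differences in these comparisons, in the same order of lines.

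Gpr17, an orphan receptor of committed precursors, was 5.26-fold lower in PomcGFP, 6.53-fold lower in kiTbr2GFP and 5.86-fold lower in tgTbr2GFP. The signal read 7.32 and 7.30 on the PomcGFP arrays, 6.61, 7.20 and 7.18 on the kiTbr2GFP arrays and 7.29, 7.01 and 7.16 on the tgTbr2GFP arrays, against 9.73, 9.69 and 9.69 on the NesGFP arrays. The NesGFP arrays were nearly equal and far above all others, among which only kiTbr2GFP replicate 1 was below 7. The differences from NesGFP were -2.39 ± 0.17 (adjusted p = 2.10e-06) in PomcGFP, -2.71 ± 0.15 (2.16e-07) in kiTbr2GFP and -2.55 ± 0.15 (4.62e-07) in tgTbr2GFP.

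Both OLIG transcription factors were lower outside NesGFP. Olig2, which specifies the oligodendrocyte lineage, had log2 signals of 7.75 and 7.75 on the PomcGFP arrays, 7.36, 7.73 and 7.36 on the kiTbr2GFP arrays and 7.70, 7.60 and 7.75 on the tgTbr2GFP arrays, against 9.66, 9.98 and 9.93 on the NesGFP arrays. The other 8 arrays lay within a narrow band well under the NesGFP arrays. Its differences from NesGFP were -2.11 ± 0.15 in PomcGFP (adjusted p = 1.79e-06), -2.38 ± 0.13 in kiTbr2GFP (1.96e-07) and -2.18 ± 0.13 in tgTbr2GFP (4.62e-07). Olig1, which acts in oligodendrocyte maturation, had 8.74 and 8.80 on the PomcGFP arrays, 7.81, 7.85 and 7.99 on the kiTbr2GFP arrays and 8.95, 8.03 and 8.21 on the tgTbr2GFP arrays, against 10.40, 10.35 and 10.59 on the NesGFP arrays. NesGFP was again above all other arrays, and the next highest was tgTbr2GFP replicate 1. Olig1 differed from NesGFP by -1.67 ± 0.22 in PomcGFP (adjusted p = 1.30e-04), -2.56 ± 0.20 in kiTbr2GFP (1.65e-06) and -2.05 ± 0.20 in tgTbr2GFP (1.04e-05). Without tgTbr2GFP replicate 1, which also carried the high myelin signal, the tgTbr2GFP difference was -2.33 (adjusted p = 1.36e-06).

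The proteoglycan genes did not behave alike. Bcan, which encodes the matrix lectican brevican, was 5.87-fold lower in PomcGFP, 10.7-fold lower in kiTbr2GFP and 6.77-fold lower in tgTbr2GFP than in NesGFP. Its log2 signal was 7.83 and 7.83 on the PomcGFP arrays, 6.79, 7.08 and 7.03 on the kiTbr2GFP arrays and 7.88, 7.46 and 7.53 on the tgTbr2GFP arrays, against 10.30, 10.39 and 10.47 on the NesGFP arrays. The kiTbr2GFP arrays were the lowest and none of them overlapped another line. Bcan differed from NesGFP by -2.55 ± 0.15 in PomcGFP (adjusted p = 7.69e-07), -3.42 ± 0.13 in kiTbr2GFP (5.46e-08) and -2.76 ± 0.13 in tgTbr2GFP (1.30e-07), and ranked 97th, 51st and 73rd from the most negative difference.

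Cspg4, which encodes the membrane proteoglycan NG2, showed a much smaller difference. The arrays gave log2 signals of 7.13 and 6.84 on the PomcGFP arrays, 6.87, 7.12 and 7.12 on the kiTbr2GFP arrays and 6.61, 6.99 and 7.14 on the tgTbr2GFP arrays, against 7.87, 7.66 and 7.58 on the NesGFP arrays. The groups did not overlap, but the lowest NesGFP array was only slightly above the highest of the others. It was lower by 1.65-fold in PomcGFP (-0.72 ± 0.17, adjusted p = 0.00642), 1.59-fold in kiTbr2GFP (-0.67 ± 0.16, adjusted p = 0.00452) and 1.73-fold in tgTbr2GFP (-0.79 ± 0.16, adjusted p = 0.00165). The PomcGFP call was lost without PomcGFP replicate 2 (-0.58, adjusted p = 0.0797).

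Vcan, which encodes the lectican versican, did not pass the test in any comparison. Its log2 signal was 8.13 and 7.21 on the PomcGFP arrays, 8.54, 8.19 and 8.17 on the kiTbr2GFP arrays and 8.54, 7.95 and 7.95 on the tgTbr2GFP arrays, against 7.88, 8.07 and 8.21 on the NesGFP arrays. Each of the other lines overlapped NesGFP, both PomcGFP arrays lay below the kiTbr2GFP arrays, and the pair of PomcGFP arrays was the most spread. The difference from NesGFP was -0.38 in PomcGFP (95% interval -0.96 to 0.19, adjusted p = 0.27), 0.24 in kiTbr2GFP (-0.27 to 0.76, adjusted p = 0.422) and 0.09 in tgTbr2GFP (-0.42 to 0.60, adjusted p = 0.791). The PomcGFP value rested on single arrays, being -0.84 (adjusted p = 0.0329) without PomcGFP replicate 1 and 0.08 (adjusted p = 0.861) without PomcGFP replicate 2, and the tgTbr2GFP value was -0.11 without tgTbr2GFP replicate 1.

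Ptprz1, a receptor phosphatase whose forms carry chondroitin sulfate and bind pleiotrophin, varied over a small range. Log2 signals were 9.93 and 9.94 on the PomcGFP arrays, 10.26, 10.39 and 10.12 on the kiTbr2GFP arrays and 10.61, 10.54 and 10.44 on the tgTbr2GFP arrays, against 10.56, 10.86 and 10.80 on the NesGFP arrays. PomcGFP was lowest, and tgTbr2GFP overlapped NesGFP. Ptprz1 was lower than in NesGFP, at -0.80 ± 0.13 in PomcGFP (1.74-fold, adjusted p = 5.14e-04) and at -0.48 ± 0.12 in kiTbr2GFP (1.4-fold, adjusted p = 0.00556). In tgTbr2GFP the difference of -0.21 (95% interval -0.46 to 0.05) did not pass (adjusted p = 0.175).

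Lhfpl3, a tetraspan membrane protein gene used as a precursor marker, was lower in each line than in NesGFP. Its log2 signal was 7.80 and 7.66 on the PomcGFP arrays, 7.36, 7.55 and 7.32 on the kiTbr2GFP arrays and 7.30, 7.24 and 7.43 on the tgTbr2GFP arrays, against 8.31, 8.38 and 8.61 on the NesGFP arrays. NesGFP stood above the rest with no overlap. The difference was -0.71 ± 0.13 in PomcGFP (1.63-fold, adjusted p = 0.00138), -1.03 ± 0.12 in kiTbr2GFP (2.04-fold, adjusted p = 3.22e-05) and -1.11 ± 0.12 in tgTbr2GFP (2.15-fold, adjusted p = 2.18e-05).

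**Figure D2:**
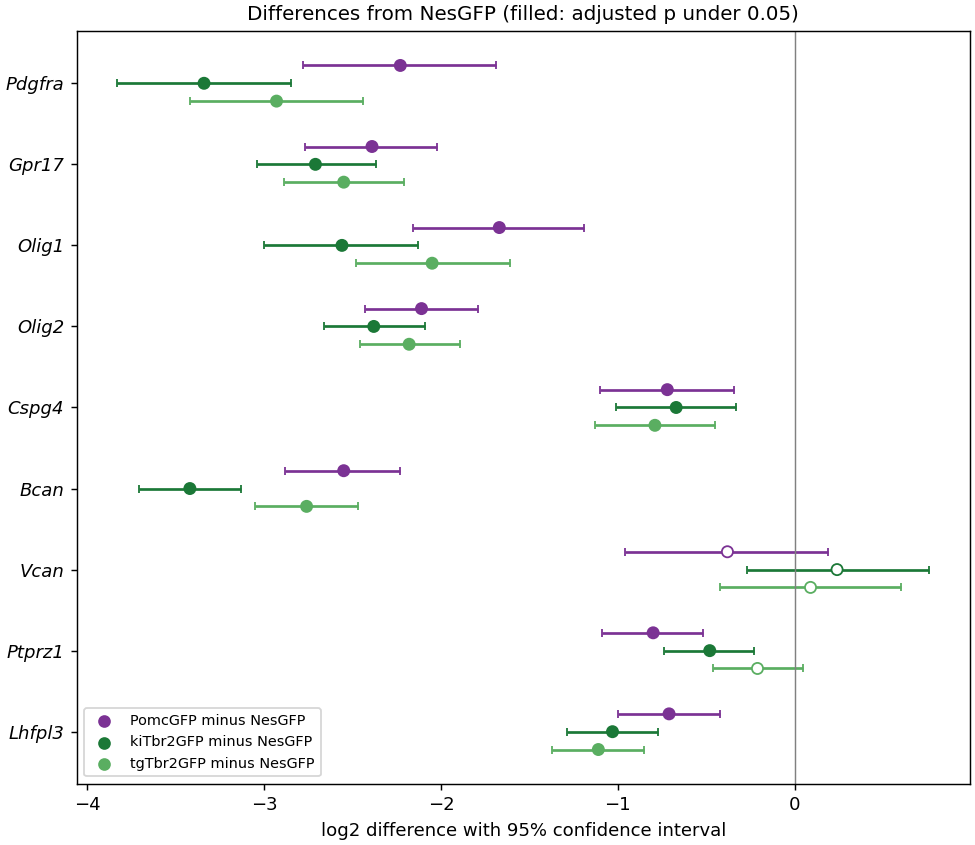
Log2 difference from NesGFP of each of the 9 genes in PomcGFP, kiTbr2GFP and tgTbr2GFP, with 95% intervals from limma and filled points for an adjusted p under 0.05. The values lie between -3.42 (Bcan in kiTbr2GFP) and 0.24 (Vcan in kiTbr2GFP), and the intervals of Vcan in all 3 lines and of Ptprz1 in tgTbr2GFP include 0.

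Between the lines other than NesGFP, the set differed less. PomcGFP was higher than kiTbr2GFP in Pdgfra, Olig1 and Bcan, which is 3 of 9 genes where 2.90% of all genes were higher and 4.88% differed in either direction, and 0 of the 9 were lower. Pdgfra was 2.16-fold higher (1.11 ± 0.25, adjusted p = 0.0265), Olig1 1.85-fold (0.89 ± 0.22, adjusted p = 0.0431) and Bcan 1.82-fold (0.87 ± 0.15, adjusted p = 0.00507). These 3 genes had non-overlapping arrays, and in all 6 of the 9 genes had both PomcGFP arrays above all kiTbr2GFP arrays, where 18.1% of all genes did. The other 3 of the 6, Gpr17 (0.31), Olig2 (0.26) and Lhfpl3 (0.32), had adjusted p-values of 0.504, 0.518 and 0.278. Ptprz1 (-0.32, adjusted p = 0.257) and Vcan (-0.63, adjusted p = 0.28) had both PomcGFP arrays below the kiTbr2GFP arrays without passing the test, which 15.8% of all genes had, and Cspg4 differed by -0.05 (95% interval -0.43 to 0.33, adjusted p = 0.984).

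These calls rested on few arrays. Pdgfra lost its call without PomcGFP replicate 1 (0.79, adjusted p = 0.3), without kiTbr2GFP replicate 1 (1.03, adjusted p = 0.106) and without kiTbr2GFP replicate 3 (1.10, adjusted p = 0.08). Bcan kept its size without PomcGFP replicate 1 or 2 (0.87 each) with adjusted p-values of 0.0564 and 0.0543. Olig1 kept its call in 9 of 20 alternatives, with values between 0.85 and 0.94 throughout, and lost it without either PomcGFP replicate, any kiTbr2GFP replicate, tgTbr2GFP replicate 3 or NesGFP replicate 1 or 2. Myelin genes moved with these 3 genes: the mean log2 signal of 11 myelin genes was 8.98 and 9.04 on the PomcGFP arrays, against 7.28, 7.97 and 7.23 on the kiTbr2GFP arrays. With all arrays, 2.90% of all genes were higher in PomcGFP than in kiTbr2GFP, beside the counts of marker lists that follow. Mbp (1.87, adjusted p = 0.00274) and Mobp (2.20, adjusted p = 0.0218) were the 2 of 11 higher in PomcGFP, a count that was 10 without tgTbr2GFP replicate 1 and 1 without PomcGFP replicate 1 or 2 or kiTbr2GFP replicate 1 or 3. Astrocyte genes were higher in 2 of 12 (1 without PomcGFP replicate 2). Microglia genes were higher in 4 of 8 (0 without PomcGFP replicate 1 or 2 or kiTbr2GFP replicate 1). Mature neuron markers were higher in 7 of 10, and in 5 to 8 on leaving out an array. Endothelial markers were higher in 2 of 9 and mural markers in 1 of 10, and both counts were 0 without PomcGFP replicate 2, any kiTbr2GFP replicate or tgTbr2GFP replicate 3. The part of these cell types in the result was not tested.

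In kiTbr2GFP against tgTbr2GFP, Bcan was the 1 gene of 9 that was lower, where 0.684% of all genes were lower and 1.12% differed in either direction, and 0 of the 9 were higher. The difference was -0.66 ± 0.13 (1.58-fold, adjusted p = 0.038), with 6.79, 7.08 and 7.03 on the kiTbr2GFP arrays against 7.88, 7.46 and 7.53 on the tgTbr2GFP arrays. The call was lost on leaving out either PomcGFP replicate (adjusted p = 0.0688 each), any kiTbr2GFP replicate (0.157, 0.0902 and 0.114 for replicates 1, 2 and 3), tgTbr2GFP replicate 1 (-0.53, 0.125) or tgTbr2GFP replicate 3 (0.086). Olig1 (-0.51, 95% interval -0.95 to -0.08, adjusted p = 0.386) and Ptprz1 (-0.27, -0.53 to -0.02, adjusted p = 0.479) had no overlap between the arrays without passing, so that 3 of 9 genes had all kiTbr2GFP arrays lower, where 9.38% of all genes did. Pdgfra differed by -0.42 (-0.91 to 0.08, adjusted p = 0.699), and the other 5 genes by -0.20 to 0.15. Without tgTbr2GFP replicate 1, the array with the high myelin signal, the difference was -0.23 for Olig1 and -0.25 for Pdgfra. Astrocyte genes were lower in 3 of 12 in kiTbr2GFP, and 0 of 12 without any 1 kiTbr2GFP replicate or tgTbr2GFP replicate 1. Mature neuron markers were lower in 2 of 10, Camk2a (-1.82, adjusted p = 0.00878) and Ryr2 (-1.50, adjusted p = 0.0223), and Camk2a kept its call in all 20 alternatives. The count was 1 without kiTbr2GFP replicate 2 or 3 or tgTbr2GFP replicate 3, and 4 without tgTbr2GFP replicate 2. Their part in the result was not tested.

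PomcGFP and tgTbr2GFP differed in 0 of the 9 genes by limma, where 1.37% of all genes did in either direction. Ptprz1 was nearest to the threshold, at -0.59 ± 0.13 (95% interval -0.88 to -0.31, adjusted p = 0.0542), with 9.93 and 9.94 on the PomcGFP arrays against 10.61, 10.54 and 10.44 on the tgTbr2GFP arrays. It passed without NesGFP replicate 1 (0.0338), 2 (0.0494) or 3 (0.0424), at an unchanged difference of -0.59. Pdgfra differed by 0.69 (0.14 to 1.24, adjusted p = 0.306), Lhfpl3 by 0.40 (0.11 to 0.69, adjusted p = 0.247) and Olig1 by 0.38 (-0.11 to 0.86, adjusted p = 0.697). Without tgTbr2GFP replicate 1 the Olig1 difference was 0.65 and passed (adjusted p = 0.046). Without the same array 7 of 11 myelin genes were higher in PomcGFP than in tgTbr2GFP, against 0 with it. Over all 16527 genes, 143 were higher without that array and 90 with it. The part of the myelin genes in the Olig1 result was not tested. Bcan, Gpr17, Olig2, Cspg4 and Vcan differed by between -0.47 and 0.21, with adjusted p-values of 0.653 to 0.97.

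**Figure D3:**
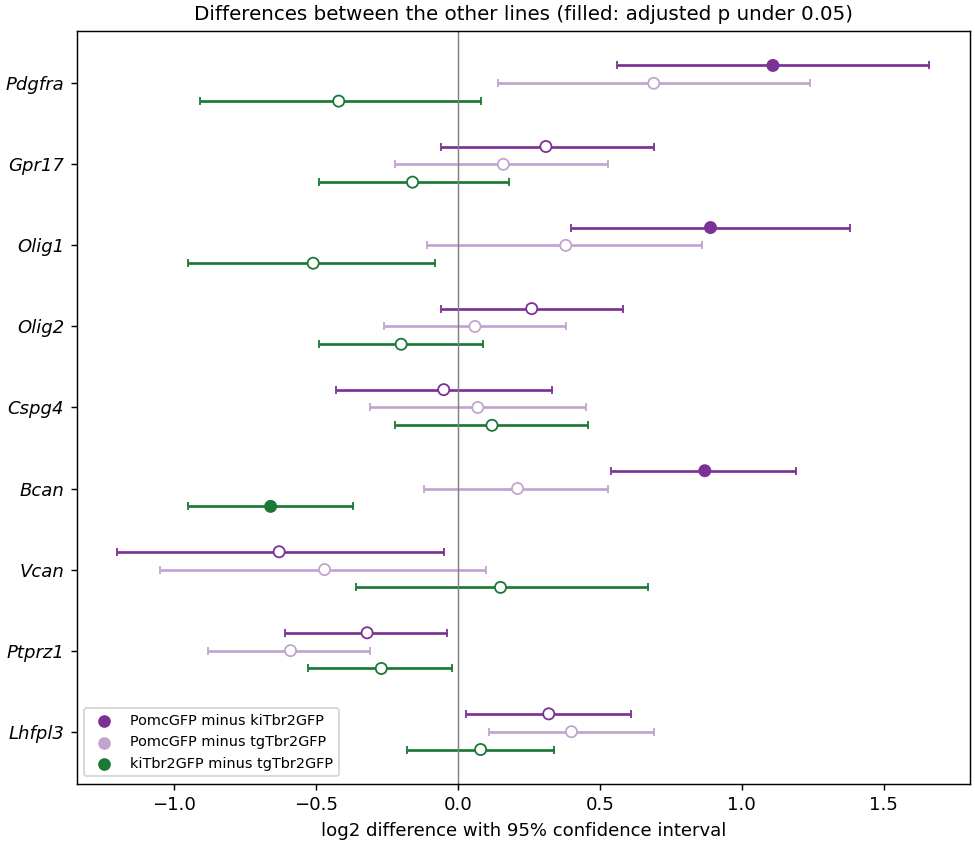
Log2 differences of the 9 genes in PomcGFP minus kiTbr2GFP, PomcGFP minus tgTbr2GFP and kiTbr2GFP minus tgTbr2GFP, with 95% intervals from limma and filled points for an adjusted p under 0.05. The largest is 1.11 for Pdgfra in PomcGFP over kiTbr2GFP, and none reaches the size of the Pdgfra differences from NesGFP.

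Ordered by line mean, Pdgfra, Gpr17, Olig1, Olig2 and Bcan followed 1 order, which was NesGFP, PomcGFP, tgTbr2GFP and then kiTbr2GFP. NesGFP and PomcGFP differed in all 5, PomcGFP and tgTbr2GFP in 0, and tgTbr2GFP and kiTbr2GFP in Bcan alone. Lhfpl3 had kiTbr2GFP before tgTbr2GFP, and Cspg4 had the order NesGFP, kiTbr2GFP, PomcGFP and tgTbr2GFP. In both genes NesGFP differed from its neighbour and no other neighbours differed past the test. For Ptprz1 the order was NesGFP, tgTbr2GFP, kiTbr2GFP and PomcGFP, and no neighbours differed past the test. The Vcan order was kiTbr2GFP, tgTbr2GFP, NesGFP and PomcGFP, also with no neighbours that differed.

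With each gene centred on its mean over the 4 lines, the mean profile of the 9 genes was -0.28 in PomcGFP, -0.58 in kiTbr2GFP, -0.38 in tgTbr2GFP and 1.23 in NesGFP. Olig2 lay nearest to it, at a root mean square difference of 0.251 log2 units, and Vcan farthest, at 0.780. Among other genes the 6 nearest to the mean profile over these 4 line means were Kcnj10 (0.020), Tns3 (0.033), Sema6a (0.033), Uqcrc1 (0.040), Hbegf (0.042) and Sorbs3 (0.048). Predicted and clone-named genes were left out of this search and of those for single genes below. Kcnj10, an inward rectifier potassium channel of glia, had a mean of 8.41 on PomcGFP arrays, 8.11 on kiTbr2GFP arrays and 8.34 on tgTbr2GFP arrays, against 9.90 on NesGFP arrays. The 2 genes nearest to Pdgfra were Fa2h (0.102), an enzyme of myelin lipid synthesis, and Abcb1a (0.122), an efflux pump of brain endothelium. For Gpr17 they were Ppic (0.013) and Efemp1 (0.019), and for Vcan they were Cit (0.024) and Mapk6 (0.041). The measure rests on 4 line means of the same arrays and describes levels only.

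Of 15 further precursor genes tested, 7 were lower in PomcGFP and 8 each in kiTbr2GFP and tgTbr2GFP, with 0 higher, at medians of -0.45, -0.55 and -0.58, and the rest did not pass. Of all genes 24.0% were lower in PomcGFP, 27.0% in kiTbr2GFP and 25.8% in tgTbr2GFP, and 15.9%, 18.2% and 15.8% were higher. Without PomcGFP replicate 2 the PomcGFP count was 4. Sox10, the factor of the whole oligodendrocyte lineage, was lower, at -1.67 ± 0.19 in PomcGFP (adjusted p = 4.27e-05), -1.88 ± 0.17 in kiTbr2GFP (4.83e-06) and -1.88 ± 0.17 in tgTbr2GFP (6.14e-06). C1ql1, a secreted complement-like protein, was lower, at -1.91, -1.87 and -1.75 in the same lines. Over all 16527 genes, 479 were higher and 328 lower in PomcGFP than in kiTbr2GFP. Between PomcGFP and kiTbr2GFP, 1 of the 15 was higher and 1 lower: Tnr, the matrix protein tenascin-R, by 1.27 ± 0.19 (adjusted p = 0.00274, and 0.0512 without PomcGFP replicate 1), and Sox6, a factor of precursors, by -0.51 ± 0.13 (adjusted p = 0.0482), a call lost in 12 of 20 alternatives, among them the omission of either PomcGFP replicate, any kiTbr2GFP replicate or any tgTbr2GFP replicate, with adjusted p-values up to 0.285.

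Of 8 genes of committed precursors and premyelinating cells, 6 were lower in PomcGFP and all 8 in kiTbr2GFP and in tgTbr2GFP, at medians of -0.93, -1.39 and -1.33. Of all genes 24.0%, 27.0% and 25.8% were lower in these lines. The PomcGFP count was 5 without PomcGFP replicate 2 and 8 without tgTbr2GFP replicate 2. Bmp4, a growth factor made by committed precursors, was lower, at -2.02 ± 0.15 in PomcGFP (adjusted p = 2.78e-06), -2.58 ± 0.14 in kiTbr2GFP (1.52e-07) and -2.39 ± 0.14 in tgTbr2GFP (3.71e-07). Bcas1, which marks premyelinating cells, was lower in kiTbr2GFP, at -2.95 ± 0.40, and in tgTbr2GFP, at -2.01 ± 0.40, and it was higher in PomcGFP than in kiTbr2GFP by 2.11 ± 0.45 (adjusted p = 0.0187). That last call was lost without either PomcGFP replicate, kiTbr2GFP replicate 1 or kiTbr2GFP replicate 3, with adjusted p-values up to 0.143.

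Around Pdgfra, 8 genes for growth factor ligands, the beta receptor and related receptor kinases were tested. In PomcGFP 4 were lower and 1 higher than in NesGFP, in kiTbr2GFP 5 were lower, and in tgTbr2GFP 4 were lower, where 24.0%, 27.0% and 25.8% of all genes were lower and 15.9%, 18.2% and 15.8% higher. Pdgfrb, the beta receptor of pericytes, was lower, at -2.76 ± 0.15 in PomcGFP (adjusted p = 6.38e-07), -2.99 ± 0.14 in kiTbr2GFP (9.94e-08) and -2.92 ± 0.14 in tgTbr2GFP (1.27e-07). The ligand gene Pdgfd passed as lower in each line, with means of 6.03 in PomcGFP, 5.49 in kiTbr2GFP and 5.82 in tgTbr2GFP, against 7.74 in NesGFP. The first 3 means lay at or under the 25th percentile of the arrays, so no size is given for its differences. Flt3, a related receptor kinase, was higher in PomcGFP by 0.55 ± 0.17 (adjusted p = 0.0254), a call lost without PomcGFP replicate 1 or NesGFP replicate 2. The count of lower genes was 2 in PomcGFP without either of its replicates, and 3 in kiTbr2GFP without kiTbr2GFP replicate 1 or NesGFP replicate 2, which is near the share of all genes. In tgTbr2GFP that count was 3 without tgTbr2GFP replicate 1 or 2 or NesGFP replicate 1 or 2.

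Around Ptprz1, 5 genes for its ligands and cell surface partners were tested. In PomcGFP 3 were lower and 1 higher than in NesGFP, in kiTbr2GFP all 5 were lower, and in tgTbr2GFP 4 were lower. Of all genes 24.0%, 27.0% and 25.8% were lower in these lines, and 15.9%, 18.2% and 15.8% higher. In tgTbr2GFP the count was 3 without either PomcGFP replicate, kiTbr2GFP replicate 1, tgTbr2GFP replicate 2 or 3, or NesGFP replicate 1 or 2. It was 5 without tgTbr2GFP replicate 1. Ptn, the ligand pleiotrophin, was lower, at -1.15 ± 0.20 in PomcGFP (adjusted p = 8.42e-04), -2.13 ± 0.18 in kiTbr2GFP (3.05e-06) and -1.10 ± 0.18 in tgTbr2GFP (4.65e-04). It was lower in kiTbr2GFP than in tgTbr2GFP, at -1.04 ± 0.18 (adjusted p = 0.0199), a call lost without kiTbr2GFP replicate 1, kiTbr2GFP replicate 3 or tgTbr2GFP replicate 1. Mdk, the ligand midkine, was lower, at -1.54 ± 0.14 in PomcGFP than in NesGFP (adjusted p = 9.73e-06) and at -1.09 ± 0.14 than in kiTbr2GFP (adjusted p = 9.65e-04). Cntn1, the partner contactin 1 that neurons also make, was higher by 2.46 ± 0.36 in PomcGFP than in kiTbr2GFP (adjusted p = 0.00191). The PomcGFP count of lower genes was 2 without either PomcGFP replicate, and the higher call of Nrcam, a neuronal adhesion molecule (0.53, adjusted p = 0.0404), was lost in 10 of 20 alternatives, including the omission of PomcGFP replicate 1 or 2, kiTbr2GFP replicate 2 or 3, tgTbr2GFP replicate 3, or NesGFP replicate 1 or 3.

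Of 13 lectican matrix genes tested besides Bcan and Vcan, 6 were lower and 1 higher in PomcGFP, 6 lower and 1 higher in kiTbr2GFP, and 7 lower and 1 higher in tgTbr2GFP. Of all genes 24.0%, 27.0% and 25.8% were lower and 15.9%, 18.2% and 15.8% higher in these lines. Cspg5, the proteoglycan neuroglycan C, was lower, at -1.85 ± 0.16 in PomcGFP (adjusted p = 6.30e-06), -2.42 ± 0.14 in kiTbr2GFP (2.73e-07) and -1.81 ± 0.14 in tgTbr2GFP (2.30e-06). Adamts4, a protease that cleaves lecticans, was lower, at -1.47 ± 0.14 in PomcGFP (1.08e-05) and -1.74 ± 0.12 in tgTbr2GFP (1.20e-06). Hapln1, a link protein, passed as lower in kiTbr2GFP (adjusted p = 2.65e-05), where its mean of 5.84 lay under the 25th percentile of the arrays, against 8.12 in NesGFP. Has1, a hyaluronan synthase, was the gene that passed as higher in each line, but its NesGFP mean of 5.67 lay under the 25th percentile of the arrays, so no size is given. Without NesGFP replicate 3, 2 of the 13 were higher in PomcGFP and in kiTbr2GFP. Without tgTbr2GFP replicate 1, 5 of the 13 were lower in tgTbr2GFP. Of 6 relatives and dimer partners of the OLIG factors, Tcf4, an E-protein, was higher by 1.66 ± 0.18 in PomcGFP, 1.84 ± 0.16 in kiTbr2GFP and 1.68 ± 0.16 in tgTbr2GFP (adjusted p at most 2.72e-05), and 2, 2 and 1 genes were lower, Id2 and Id4 in PomcGFP and kiTbr2GFP and Id2 in tgTbr2GFP. Both are inhibitors of basic helix-loop-helix factors. The counts of lower genes are near the 24.0%, 27.0% and 25.8% of all genes that were lower. Without tgTbr2GFP replicate 3 the tgTbr2GFP count of lower genes was 2, and without NesGFP replicate 2 the count of higher genes was 2 in each line. Among 4 relatives of Lhfpl3, Lhfp (-0.95, -1.26 and -0.87) and Lhfpl2 (-0.60, -0.74 and -0.70) were the 2 lower in PomcGFP, kiTbr2GFP and tgTbr2GFP, and 3 were lower in tgTbr2GFP without NesGFP replicate 3.

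Marker lists of 5 other cell types had lower mean signals outside NesGFP. Against NesGFP, 24.0% of all genes were lower in PomcGFP, 27.0% in kiTbr2GFP and 25.8% in tgTbr2GFP. Of 11 myelin genes 6 were lower in PomcGFP and all 11 in kiTbr2GFP and in tgTbr2GFP, with mean log2 signals of 8.98 to 9.04, 7.23 to 7.97 and 7.23 to 9.24, against 10.62 to 10.79 in NesGFP. Mag was lower, at -3.28 in PomcGFP, -4.67 in kiTbr2GFP and -4.29 in tgTbr2GFP. Of 12 astrocyte and radial glia genes 11, 12 and 12 were lower, with means of 8.54 to 8.64, 7.94 to 8.19 and 8.42 to 8.93, against 10.06 to 10.20 in NesGFP. Endothelial genes were lower in 9 of 9 and mural cell genes in 10 of 10 in each of the 3 lines, with mural means of 6.91 to 7.38, 6.73 to 6.86 and 6.76 to 7.03, against 9.49 to 9.75 in NesGFP. Meningeal fibroblast genes were lower in 4 of 7 in each line, led by Dcn at -1.89, -2.07 and -2.21. In PomcGFP the mural count was 8 without PomcGFP replicate 1, and the fibroblast count 3 without PomcGFP replicate 2. The astrocyte count there was 9 without either PomcGFP replicate or NesGFP replicate 2, and the myelin count 8 without tgTbr2GFP replicate 1. In tgTbr2GFP the myelin count was 10 without tgTbr2GFP replicate 2 or 3 or NesGFP replicate 2. The astrocyte count was 11 without tgTbr2GFP replicate 2 or 3. The NesGFP arrays had the highest means in all 5 of these lists, and how much each cell type adds to the signal of Cspg4, Pdgfra or the other 7 genes was not tested.

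Neuronal and microglial markers were mixed in direction. Of 10 markers of intermediate progenitors and young granule neurons, 4 were higher in PomcGFP and 7 were higher in kiTbr2GFP and in tgTbr2GFP. Of all genes 15.9%, 18.2% and 15.8% were higher in PomcGFP, kiTbr2GFP and tgTbr2GFP, and 24.0%, 27.0% and 25.8% lower. Dcx, a gene of young neurons, was higher by 2.01, 2.51 and 2.19 in the 3 lines, and Eomes was the 1 marker lower in PomcGFP (-1.28); 2 were lower there and 1 in tgTbr2GFP without NesGFP replicate 3. Of 10 mature neuron markers 7 were higher and 0 lower in PomcGFP, 4 higher and 5 lower in kiTbr2GFP, and 5 higher and 1 lower in tgTbr2GFP. In tgTbr2GFP 4 were higher without tgTbr2GFP replicate 1 or NesGFP replicate 3. The 1 lower in tgTbr2GFP was Calb1 (-0.68, adjusted p = 0.0378), and 0 were lower without either PomcGFP replicate, kiTbr2GFP replicate 2, tgTbr2GFP replicate 2 or 3, or NesGFP replicate 1 or 3. Of 8 microglia markers 4 were higher and 0 lower in PomcGFP than in NesGFP (2 higher without PomcGFP replicate 1), 0 higher and 1 lower in kiTbr2GFP (0 lower without kiTbr2GFP replicate 1, 1 higher without NesGFP replicate 3), and 1 higher and 1 lower in tgTbr2GFP. In tgTbr2GFP the lower call was lost without tgTbr2GFP replicate 2 or NesGFP replicate 1, and the higher one without tgTbr2GFP replicate 1 or 3 or NesGFP replicate 1 or 2. The microglia counts with all arrays in kiTbr2GFP and in tgTbr2GFP were under the shares of all genes.

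**Figure D4:**
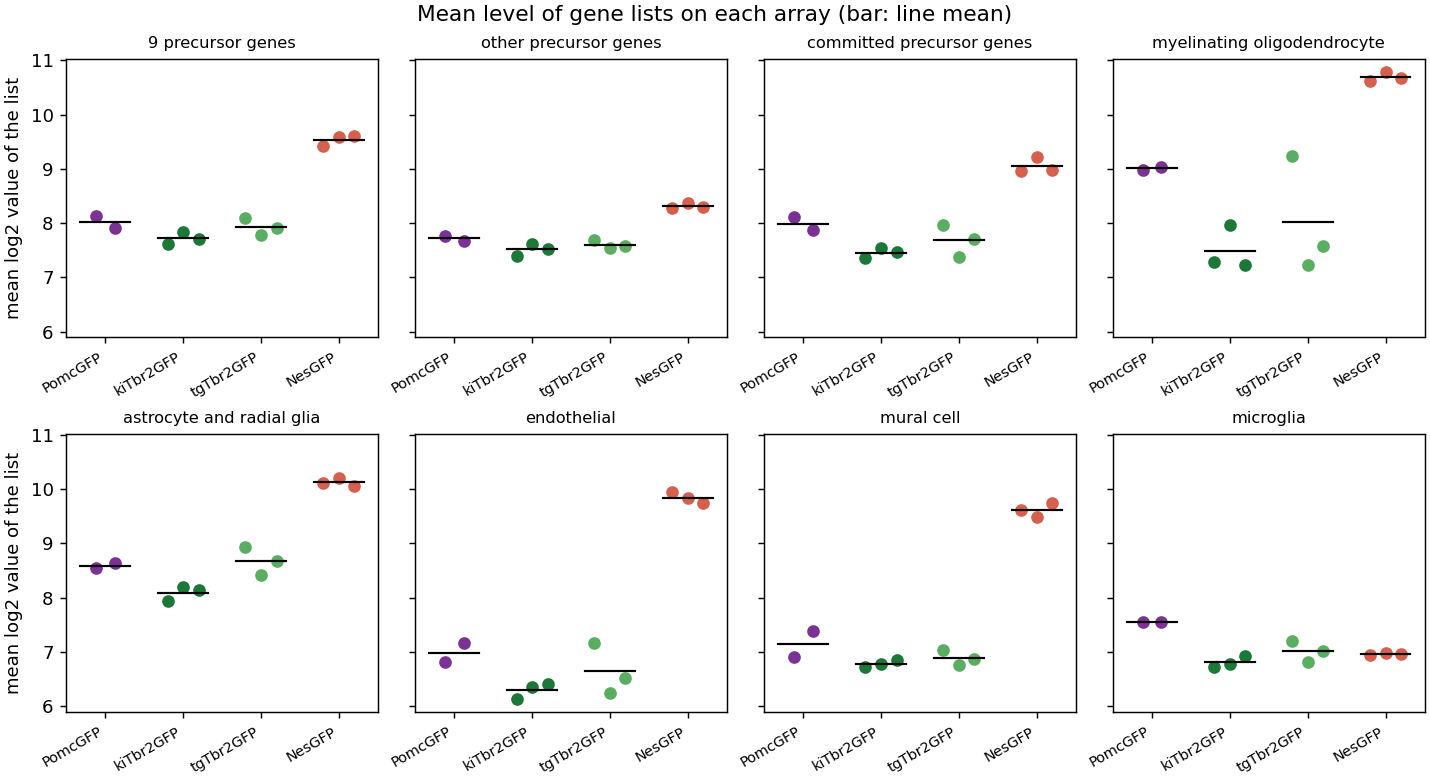
Mean log2 signal of the 9 precursor genes, of 2 further lineage lists and of 5 marker lists of other cell types on each of the 11 arrays, by line in the order PomcGFP, kiTbr2GFP, tgTbr2GFP and NesGFP; points are arrays and bars line means. The 9 genes average 7.92 to 8.13 in PomcGFP, 7.62 to 7.83 in kiTbr2GFP and 7.78 to 8.09 in tgTbr2GFP, against 9.43 to 9.60 in NesGFP, and tgTbr2GFP replicate 1 is high in the myelin list.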

How the data were processed

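RNA of sorted GFP-positive dentate gyrus cells was read by 11 arrays, 1 per sample (Affymetrix Mouse Gene 1.0 ST). The deposited values are log2 signals per transcript cluster. The authors made them with RMA and oligo, as the submitters' processing notes name without versions. RMA corrects background, normalizes arrays to 1 distribution and summarizes probes, so differences are relative to the whole array and small signals are compressed. That the scale is log2 was inferred from RMA and from the range of values, and the genome build behind the probe sets is not given in the sources used here.

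Of 28858 probe sets, 21789 had 1 gene symbol in the platform annotation, 1621 several and 5448 were not listed. Probe sets above the 25th percentile of the array on at least 2 arrays were kept, and the one with the highest mean stood for a gene, which gave 16527 genes. With limma 3.58.1 (R 4.3.3), 1 model with a mean per line was fitted over the 11 arrays (7 residual and 4.22 prior degrees of freedom). All 6 pairwise comparisons of lines were made with two-sided moderated tests. The threshold was a p under 0.05 after Benjamini-Hochberg adjustment over all genes, within each comparison, whatever the fold. The number of arrays limits the precision. Fits were tested on simulated data.

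The 9 genes and all lists were chosen with earlier results of these data known. Named genes are the 9, up to 2 of each direction per list and comparison among those past the test, up to 2 per marker list, and the genes nearest in profile. Promoter windows of 250 bases came from RefSeq, GRCm38.p6, and no window was used for Gpr17 or Olig1. Alternatives were no filter, a filter at the 50th percentile, the mean of a gene's probe sets, cyclic loess, median centring, array weights, a robust prior with an intensity trend, a replicate block, the compared lines alone, and leaving out each array in turn. Figures used Python 3.11.15 and matplotlib 3.10.9.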

Additional observations from a re-analysis of the deposited data

Results flagged for a closer look

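Bcan differed from NesGFP by more in kiTbr2GFP (-3.42) than in tgTbr2GFP (-2.76). The difference between these effects is the comparison of kiTbr2GFP with tgTbr2GFP, -0.66 ± 0.13 (SE, limma adjusted p = 0.038), and all 3 kiTbr2GFP arrays were below all 3 tgTbr2GFP arrays. Over 20 alternatives the value lay between -0.74 and -0.48, the adjusted p between 0.00574 and 0.157, and the call was kept in 10.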

How the results depend on the processing

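Each of the 9 genes was recomputed in 6 comparisons under 20 alternatives. Against NesGFP 535 of 540 values kept their direction and their side of the threshold, and 496 of 540 did between the other lines. Directions turned only in small values: for Vcan in PomcGFP minus NesGFP to 0.08 without PomcGFP replicate 2 (range on leaving out an array -0.84 to 0.08), and in tgTbr2GFP minus NesGFP to -0.01 with array weights and -0.11 without tgTbr2GFP replicate 1 (range -0.11 to 0.19). In kiTbr2GFP minus tgTbr2GFP they turned for Cspg4 to -0.03 without tgTbr2GFP replicate 1 (range -0.03 to 0.24), for Gpr17 to 0.07 with array weights and 0.04 without kiTbr2GFP replicate 1 (range -0.26 to 0.04), and for Olig2 to 0.01 with array weights. Cspg4 turned to 0.09 in PomcGFP minus kiTbr2GFP without PomcGFP replicate 2 (range -0.20 to 0.09), and in PomcGFP minus tgTbr2GFP to -0.07 without PomcGFP replicate 1 and -0.09 without tgTbr2GFP replicate 1 (range -0.09 to 0.21).

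Of the 9 genes, leaving out each array in turn gave 7 to 9 calls in PomcGFP minus NesGFP, 8 in kiTbr2GFP minus NesGFP and 7 in tgTbr2GFP minus NesGFP. It gave 0 to 1 in kiTbr2GFP minus tgTbr2GFP, 0 to 3 in PomcGFP minus kiTbr2GFP and 0 to 1 in PomcGFP minus tgTbr2GFP. In kiTbr2GFP minus tgTbr2GFP the count was 0 with cyclic loess and with the compared lines alone, where the Bcan call was lost (adjusted p = 0.0518 and 0.0639). In PomcGFP minus tgTbr2GFP it was 1 with the 50th percentile filter and 1 with the intensity trend and robust prior, both for Ptprz1, and 3 with array weights, for Ptprz1 (-0.60, adjusted p = 0.00672), Pdgfra (0.89, 0.0318) and Lhfpl3 (0.44, 0.0342). Array weights also called Ptprz1 in PomcGFP minus kiTbr2GFP (-0.41, adjusted p = 0.0167). Olig1 lost its call in PomcGFP minus kiTbr2GFP under cyclic loess (0.055) and median centring (0.0657). Over all genes, the count in kiTbr2GFP minus tgTbr2GFP was 185, against 1393 with array weights and 68 to 261 on leaving out an array. In PomcGFP minus kiTbr2GFP it was 807, against 2065 with array weights, 1246 with the compared lines alone and 365 to 1043 on leaving out an array. In PomcGFP minus tgTbr2GFP it was 226, against 1063 with array weights, 143 with the compared lines alone and 38 to 336 on leaving out an array. The cause of these shifts was not tested, except that an omitted array leaves fewer samples.

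Deviations from the line means correlated with r between -0.11 and 0.26 over 15 pairs of arrays with the same replicate number, 4 of them over 0.1. Over 30 other pairs r lay between -0.25 and 0.12, with 2 over 0.1. Deviations within a line cancel out, so the pairs are not independent of each other. Both PomcGFP arrays, for example, give r of opposite sign with kiTbr2GFP replicate 1 (0.091 and -0.091). The largest values were between replicate 3 arrays: 0.262 for kiTbr2GFP with tgTbr2GFP, 0.154 for kiTbr2GFP with NesGFP and 0.134 for tgTbr2GFP with NesGFP. The labels do not say whether arrays of the same number shared a batch, and this was not tested. With the replicate block, the count of the 9 genes was 0 in kiTbr2GFP minus tgTbr2GFP (Bcan, adjusted p = 0.0853) and 1 in PomcGFP minus kiTbr2GFP, where Pdgfra (0.0774) and Olig1 (0.0783) were not called, and no other call of the 9 genes changed under the block.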
